A study of Mus musculus with 14 samples.

Results

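Expression of 10 inflammasome and gasdermin genes was examined across the kidneys of *Cfb*-/- and WT mice with and without diabetes. They were the sensor *Nlrp3*, the adaptor *Pycard*, the inflammatory caspases *Casp1* and *Casp4*, the cytokines *Il1b* and *Il18*, and the gasdermins *Gsdmd*, *Gsdme*, *Gsdmc2*, and *Gsdmc3*. The genes were chosen by name, all 10 were found among the 21878 genes of the deposited tables, and all 10 passed the filter on low values, *Nlrp3* mainly through the diabetic mice and *Gsdmc2* and *Gsdmc3* through the 6 and 5 mice in which they were highest. *Gsdme* was listed under its older symbol *Dfna5* and was matched by its NCBI gene identifier.

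The kidneys came from 14 male C57BL/6J mice, of which 4 were WT diabetic and 4 *Cfb*-/- diabetic mice and 3 of each genotype were non-diabetic controls. *Cfb* encodes complement factor B, the protease of the alternative complement pathway, and its deletion was global, so that it models no single kidney cell type. Diabetic mice had received a high-fat diet (HFD) with 60% of calories from fat for 4 weeks and streptozotocin (STZ), a toxin of pancreatic beta cells, at 60 mg/kg on 5 consecutive days. Control mice had received chow with 10% of calories from fat and citrate buffer, and the sample labels give a time of 34 weeks for all 4 groups without naming its start. A treatment label of the control mice names diabetes although their diet and disease labels do not, and the genotype is labelled a knockdown where the sample names have KO, so each mouse was placed by its sample name.

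NLRP3 is a cytosolic sensor of cell damage that joins the adaptor ASC, the product of *Pycard*, and the protease caspase-1 into the inflammasome. Caspase-1 matures IL-1β and IL-18 and cuts gasdermin D, whose freed amino-terminal part opens pores in the cell membrane, a lytic death called pyroptosis. Mouse caspase-4, also known as caspase-11, cuts gasdermin D in response to cytosolic lipopolysaccharide, and gasdermin E is a related pore-forming protein. In the kidney these parts are known from macrophages and from injured tubules, and RNA levels do not show whether a protein was cut.

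*Casp1* lies on chromosome 9 (GRCm38.p6, chr9:5298517-5307281), and *Casp4* follows it at chr9:5308849-5336791. Because both rose in diabetic mice, their promoters are shown beside that of *Nlrp3* (gene at chr11:59541569-59566955), which rose as well. Each run spans 250 bases before and 50 bases after a start site in the RefSeq table of GRCm38.p6, all on the plus strand, and capitals mark matches to the κB consensus of NF-κB. They cover chr11:59541319-59541618 for the upstream start of *Nlrp3*, chr9:5298267-5298566 for *Casp1*, and chr9:5308599-5308898 for *Casp4*.
Nlrp3: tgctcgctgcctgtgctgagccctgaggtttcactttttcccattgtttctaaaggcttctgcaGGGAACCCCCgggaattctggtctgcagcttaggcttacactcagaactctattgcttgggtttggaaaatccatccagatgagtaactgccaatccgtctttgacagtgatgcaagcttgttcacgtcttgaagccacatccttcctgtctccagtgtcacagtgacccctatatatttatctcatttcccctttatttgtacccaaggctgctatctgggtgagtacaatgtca
Casp1: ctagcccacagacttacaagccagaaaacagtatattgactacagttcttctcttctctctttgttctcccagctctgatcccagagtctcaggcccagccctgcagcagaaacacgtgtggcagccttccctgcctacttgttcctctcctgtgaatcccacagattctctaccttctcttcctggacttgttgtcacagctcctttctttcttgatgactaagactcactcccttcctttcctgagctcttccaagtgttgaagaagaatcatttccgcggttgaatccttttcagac
Casp4: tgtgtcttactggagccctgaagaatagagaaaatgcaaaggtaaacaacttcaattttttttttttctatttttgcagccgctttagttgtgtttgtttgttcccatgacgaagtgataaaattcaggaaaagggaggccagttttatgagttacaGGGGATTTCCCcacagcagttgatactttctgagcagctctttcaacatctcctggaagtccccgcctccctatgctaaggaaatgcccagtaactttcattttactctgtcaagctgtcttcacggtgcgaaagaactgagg
The capitals in *Casp4* hold 2 overlapping matches, shifted by 1 base, those in *Nlrp3* hold 1, and the *Casp1* run holds 0. The other start of *Nlrp3* in the table (chr11:59542436-59542735) held 0 matches. On either strand, the consensus occurred in 4.51% of the 32851 promoters of the same length. A promoter was in the table for 8 of the 10 genes, with 10 start sites in all, and those of *Gsdmd* and *Gsdmc2* were missing and not searched. In the other members with a promoter the consensus was not found. The interferon-response motif, GAAA and again GAAA with 2 bases of any kind between, occurred in 3.44% of all promoters and the AP-1 motif TGACTCA in 5.2%. Both were searched on either strand, and neither was found at the 10 start sites of these 8 members. A match is a string of letters and not evidence of binding.

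In WT kidneys, diabetes was accompanied by higher RNA of the sensor, both caspases, and gasdermin D, whereas the cytokines *Il1b* and *Il18* did not pass the test. In *Cfb*-/- kidneys *Nlrp3*, *Casp1*, *Casp4*, *Gsdmd*, and the adaptor *Pycard* were higher. Among the members with values above 0 in every WT control mouse, *Casp4* had the largest ratio in WT mice, at 4.86-fold in mean FPKM (sequenced fragments set relative to transcript length and library size), and the ratios in *Cfb*-/- mice were 3.96-fold for *Casp4* and 3.93-fold for *Casp1*. *Cfb*-/- diabetic and WT diabetic mice overlapped in all 10 genes, in a comparison where only 2.75% of all tested genes did not overlap. *Gsdmc2* and *Gsdmc3* followed a different course, with levels that separated single mice more than groups.

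Differences are given on the scale of log2(FPKM + 0.1) with SE from limma, fitted to all 14 mice, and p-values were adjusted by the Benjamini-Hochberg method over the 14912 genes that reached 0.1 FPKM in at least 3 mice. Genes are called changed at an adjusted p under 0.05. This scale understates changes of genes near 0.1 FPKM. Single genes were also compared with an exact two-sided permutation test over mice, whose p cannot fall below 0.0571 for 4 mice against 3, 0.0286 for 4 against 4, or 0.1 for 3 against 3. FPKM is set relative to transcript length, so levels of different genes are comparable in size.

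The deleted gene was read first. *Cfb* measured 1.13 to 2.22 FPKM in the 7 *Cfb*-/- mice and 56.7 to 131 FPKM in the 7 WT mice, so the genotypes did not overlap. Summed FPKM ranged from 330246 to 364953 in diabetic mice and from 372884 to 488196 in control mice, without overlap. Read depth is unknown, and of the 2708 genes with a mean of at least 20 FPKM, 0 were listed at 0 in any mouse. Of 8 markers of the proximal tubule, the main cell type of the kidney, none was at 0, they summed to 1779 to 4652 FPKM, and 5 were called lower in WT diabetic and 6 in *Cfb*-/- diabetic mice. Of the 14912 tested genes, 1487 and 955 were called lower in these comparisons. The median of all tested genes was 0.29 higher in WT diabetic than in WT control mice and 0.22 higher in *Cfb*-/- diabetic than in *Cfb*-/- control mice. After median-ratio scaling these medians were 0.03 and -0.01, and the share of called genes that were higher fell from 78.4% to 50.3% in WT and from 81% to 56.8% in *Cfb*-/- mice.

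In WT control kidneys the order of levels was *Pycard*, *Gsdme*, *Gsdmd*, *Il18*, *Casp1*, *Casp4*, *Il1b*, and *Nlrp3*, with *Gsdmc2* and *Gsdmc3* listed at 0. The mean fell from 2.73 ± 0.159 FPKM (SD, n = 3) for *Pycard* to 0.0899 ± 0.0319 FPKM (SD, n = 3) for *Nlrp3*. The ranges of *Il18* and *Casp1* overlapped, as did those of *Casp1* and *Casp4* and those of *Casp4* and *Il1b*, whereas *Pycard*, *Gsdme*, *Gsdmd*, and *Il18* were separate from each other in every mouse. In WT diabetic kidneys *Pycard* remained first at 4.85 ± 1.67 FPKM (SD, n = 4), and *Gsdmd* and *Casp4*, with means of 3.33 and 3.19 FPKM, stood next to it with overlapping ranges.

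**Figure D1:**
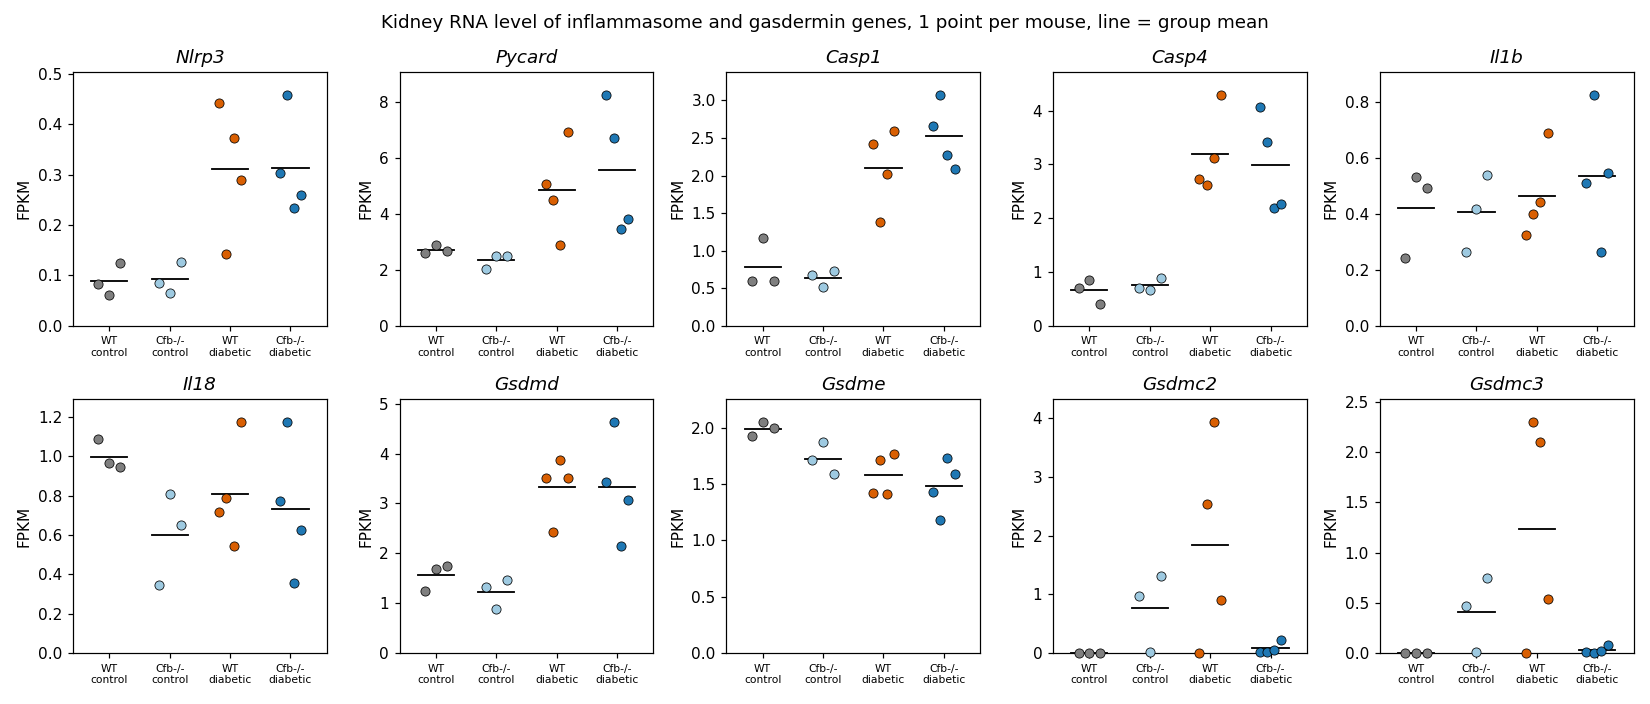
Level of each of the 10 genes in FPKM (vertical axis, from 0, with its own scale per gene) for each mouse of the 4 groups (horizontal axis), with a line at the group mean. Every diabetic mouse lies above every control mouse of its genotype for *Nlrp3*, *Casp1*, *Casp4*, and *Gsdmd*, while *Il1b* overlaps in all groups and *Gsdmc2* and *Gsdmc3* spread widely in WT diabetic and *Cfb*-/- control mice.

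*Nlrp3*, the sensor, was the lowest of the genes that changed in both genotypes. WT control mice had 0.0837, 0.0616, and 0.124 FPKM, and their diabetic counterparts had 0.442, 0.143, 0.373, and 0.29 FPKM. The *Cfb*-/- controls had 0.0859, 0.0653, and 0.126 FPKM and the diabetic mice had 0.304, 0.458, 0.234, and 0.259 FPKM. The diabetic mice of each genotype lay above its controls, with WT diabetic mouse 2 only just above the highest control. The log2 difference was 1.07 (SE 0.28) in WT mice, with a limma adjusted p of 0.00689, and 1.09 (SE 0.28) in *Cfb*-/- mice, with a limma adjusted p of 0.00767. In mean FPKM these were ratios of 3.47 and 3.4.

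*Pycard*, on chromosome 7 (chr7:127991373-127993867), encodes ASC, which links the sensor to caspase-1. WT controls measured 2.6, 2.9, and 2.67 FPKM, against 5.09, 4.51, 2.89, and 6.93 FPKM for WT diabetic mice. WT diabetic mouse 3 lay within the range of the controls and the other 3 above it. Among *Cfb*-/- mice, controls had 2.05, 2.51, and 2.49 FPKM and diabetic mice 8.26, 6.71, 3.48, and 3.83 FPKM, without overlap. The log2 difference was 0.75 (SE 0.29) in WT mice, where the limma adjusted p of 0.0507 missed the threshold, and 1.13 (SE 0.29) in *Cfb*-/- mice, with a limma adjusted p of 0.00871. Without WT diabetic mouse 3 the WT difference was 0.97, with a limma adjusted p of 0.0148. The difference between the 2 log2 differences, tested as the interaction of genotype and diabetes, was 0.38 (95% CI -0.51 to 1.27).

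*Casp1*, the protease of the inflammasome, measured 0.602, 1.17, and 0.593 FPKM in WT controls, while the WT diabetic mice had 2.42, 1.39, 2.02, and 2.6 FPKM. It measured 0.679, 0.518, and 0.729 FPKM in *Cfb*-/- control mice and 2.66, 3.07, 2.27, and 2.09 FPKM in *Cfb*-/- diabetic mice. The groups were separate in both genotypes, and the gap was narrow only between WT control mouse 2 and WT diabetic mouse 2. On the log2 scale *Casp1* differed by 1.34 (SE 0.25) in WT mice, with a limma adjusted p of 0.000813, and 1.82 (SE 0.25) in *Cfb*-/- mice, with a limma adjusted p of 9.54e-05.

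*Casp4*, its neighbour on the chromosome, measured 0.71, 0.851, and 0.409 FPKM in WT controls, while the WT diabetic mice had 2.74, 2.62, 3.12, and 4.29 FPKM. The *Cfb*-/- controls had 0.701, 0.665, and 0.895 FPKM and the *Cfb*-/- diabetic mice 4.06, 3.42, 2.19, and 2.27 FPKM. The lowest diabetic mouse of either genotype was well above the highest control. On the log2 scale *Casp4* differed by 2.14 (SE 0.26) in WT mice, with a limma adjusted p of 3.37e-05, and 1.82 (SE 0.26) in *Cfb*-/- mice, with a limma adjusted p of 0.000128. For *Nlrp3*, *Casp1*, *Casp4*, and *Gsdmd* in both genotypes, and for *Pycard* in *Cfb*-/- mice, the exact permutation p was 0.0571, the smallest that these group sizes allow.

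*Il1b*, on chromosome 2 (chr2:129364569-129371164), encodes the main cytokine matured by caspase-1. WT control mice had 0.243, 0.532, and 0.493 FPKM, and WT diabetic mice had 0.326, 0.402, 0.442, and 0.69 FPKM. Values in *Cfb*-/- control mice were 0.266, 0.418, and 0.541 FPKM, and *Cfb*-/- diabetic mice had 0.513, 0.827, 0.266, and 0.546 FPKM. Every group overlapped with every other. The log2 difference was 0.12 (95% CI -0.58 to 0.83) in WT mice and 0.29 (95% CI -0.41 to 0.99) in *Cfb*-/- mice, and the limma adjusted p was 0.776 and 0.524. These intervals do not exclude a modest change either way, and the WT value turned to -0.11 under median-ratio scaling.

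*Il18*, on chromosome 9 (chr9:50554700-50581841), is the other cytokine matured by caspase-1 and is known from tubule epithelium. WT control mice had 1.09, 0.967, and 0.944 FPKM, and WT diabetic mice had 0.719, 0.79, 0.544, and 1.17 FPKM. The 3 *Cfb*-/- controls had 0.345, 0.806, and 0.653 FPKM, all below the WT control mice, and *Cfb*-/- diabetic mice had 0.775, 1.17, 0.355, and 0.623 FPKM. In the diabetic groups 1 mouse of each genotype reached the same high value. The log2 difference of diabetic against control mice was -0.32 (95% CI -1.02 to 0.38) in WT and 0.21 (95% CI -0.49 to 0.91) in *Cfb*-/- mice, with limma adjusted p of 0.438 and 0.65. Under quantile normalization *Il18* was called lower in WT diabetic mice, by a log2 difference of -1.03 with a limma adjusted p of 0.0159.

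*Gsdmd*, on chromosome 15 (chr15:75862144-75867408), encodes the pore-forming substrate of both caspases. WT control mice had 1.25, 1.69, and 1.75 FPKM, and WT diabetic mice had 3.51, 2.43, 3.86, and 3.52 FPKM. Values in *Cfb*-/- control mice were 1.32, 0.873, and 1.47 FPKM, and *Cfb*-/- diabetic mice had 3.44, 4.63, 2.14, and 3.08 FPKM. No diabetic mouse reached down to the controls of its genotype. The log2 difference was 1.04 (SE 0.25) in WT mice, with a limma adjusted p of 0.00399, and 1.35 (SE 0.25) in *Cfb*-/- mice, with a limma adjusted p of 0.000796. The ratios of mean FPKM were 2.13 and 2.72.

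*Gsdme*, on chromosome 6 (chr6:50207401-50263857), encodes gasdermin E, a further pore-forming member of the family. WT controls measured 1.93, 2.05, and 2 FPKM, and the WT diabetic mice, at 1.42, 1.71, 1.41, and 1.77 FPKM, were all below them. The *Cfb*-/- controls had 1.71, 1.87, and 1.59 FPKM and the *Cfb*-/- diabetic mice 1.43, 1.18, 1.73, and 1.59 FPKM, which overlapped. The exact permutation p was 0.0571 in WT mice, again the smallest possible, and 0.229 in *Cfb*-/- mice. The log2 difference was -0.32 (SE 0.15) in WT and -0.21 (SE 0.15) in *Cfb*-/- mice, with limma adjusted p of 0.0935 and 0.298. Relative to the shift of all genes it was called lower in both, since median-ratio scaling gave -0.59 in WT and -0.44 in *Cfb*-/- kidneys, with limma adjusted p of 0.0086 and 0.0458.

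In WT mice 6 of the 10 genes were called and all 6 were higher, beside 46.1% of all tested genes called in this comparison and 36.2% called and higher. These 6 include *Gsdmc2* and *Gsdmc3*, which were listed at 0 in every WT control mouse and overlapped between the groups. In *Cfb*-/- mice 5 of 10 were called, all higher, beside 33.8% of all tested genes called and 27.4% called and higher. The 10 genes had a median log2 difference of 1.05 for WT kidneys and 0.69 for *Cfb*-/- kidneys. Both medians include *Gsdmc2* and *Gsdmc3*, which were higher than in controls in WT diabetic mice and lower in *Cfb*-/- diabetic mice. The medians therefore do not compare the response of the remaining members between genotypes. In WT mice 4 of 10 genes had every diabetic mouse above every control, beside 35.5% of all genes, and in *Cfb*-/- mice 5 of 10 did, beside 33.6%. The counts of members thus stood in comparisons in which a large share of the transcriptome was called. The members were chosen with earlier results of these data known, so the counts do not test them against all genes. After median-ratio scaling the log2 differences in WT mice were 0.92 for *Nlrp3*, 1.08 for *Casp1*, 1.89 for *Casp4*, and 0.77 for *Gsdmd*, and all 4 remained called. Under quantile normalization *Nlrp3* (0.33, limma adjusted p 0.278) and *Gsdmd* (0.51, limma adjusted p 0.0964) were no longer called in WT mice, and in *Cfb*-/- mice *Nlrp3* (0.46, limma adjusted p 0.151) and *Pycard* (0.78, limma adjusted p 0.0643) were not.

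**Figure D2:**
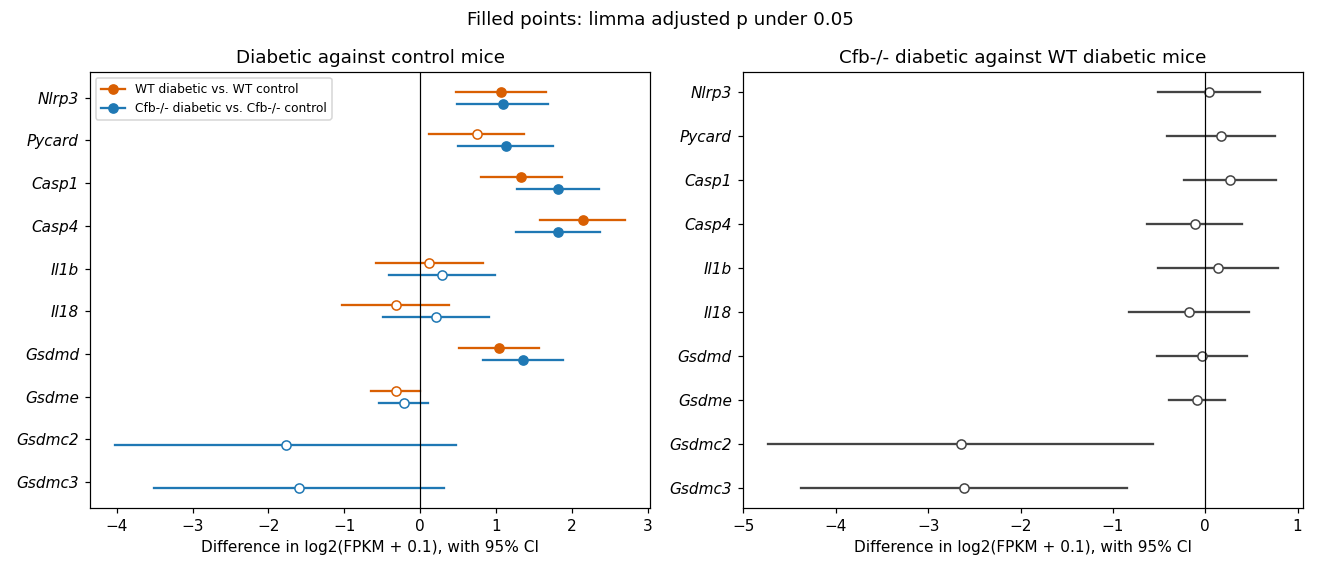
Difference in log2(FPKM + 0.1) with its 95% CI (horizontal axis) for each gene (vertical axis), at left for diabetic against control mice in WT and *Cfb*-/- mice, and at right for *Cfb*-/- diabetic against WT diabetic mice. Filled points passed a limma adjusted p under 0.05, which *Nlrp3*, *Casp1*, *Casp4*, and *Gsdmd* did in both genotypes at left and no gene did at right. *Gsdmc2* and *Gsdmc3* carry no WT value at left because no WT control mouse had a value above 0.

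Macrophage markers moved in the same direction as the called members. Of all tested genes, 36.2% were called and higher in WT and 27.4% in *Cfb*-/- mice. These shares stand beside the counts of higher markers in this paragraph. Of 10 macrophage markers, 10 were called higher in WT diabetic and 9 in *Cfb*-/- diabetic mice. Their sum was 71.1 to 89.7 FPKM in WT control, 272 to 401 FPKM in WT diabetic, 59.3 to 94.3 FPKM in *Cfb*-/- control, and 238 to 434 FPKM in *Cfb*-/- diabetic mice, and 0 of the markers were at 0 in a group. T cell markers summed to 3.18 to 5.55 FPKM in WT control and 6.36 to 11.7 FPKM in WT diabetic mice, and 6 of 7 were called higher in both genotypes. Markers of injured tubule, among them *Havcr1* and *Lcn2*, summed to 324 to 370 FPKM in WT control, 1714 to 2773 FPKM in WT diabetic, 357 to 453 FPKM in *Cfb*-/- control, and 1439 to 2839 FPKM in *Cfb*-/- diabetic mice, with 7 of 7 called higher in both genotypes. Neutrophil markers summed to 1.63 to 8.32 FPKM over all mice. Of the 5 tested, *Csf3r* was called higher in WT mice, and in *Cfb*-/- mice *Csf3r* and *Ltf* were called higher and *S100a9* lower, while the defining marker *Ly6g* was at 0 in 3 of the 4 groups. B cell markers were called higher for 4 of 5 in WT and 2 of 5 in *Cfb*-/- mice. Of 6 markers of intercalated cells, 1 was called higher in each genotype and 1 lower in WT mice. The part of these cell types in the differences of *Nlrp3*, *Pycard*, *Casp1*, *Casp4*, and *Gsdmd* was not tested, and in whole kidney RNA more cells of a type and more RNA per cell cannot be told apart.

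**Figure D3:**
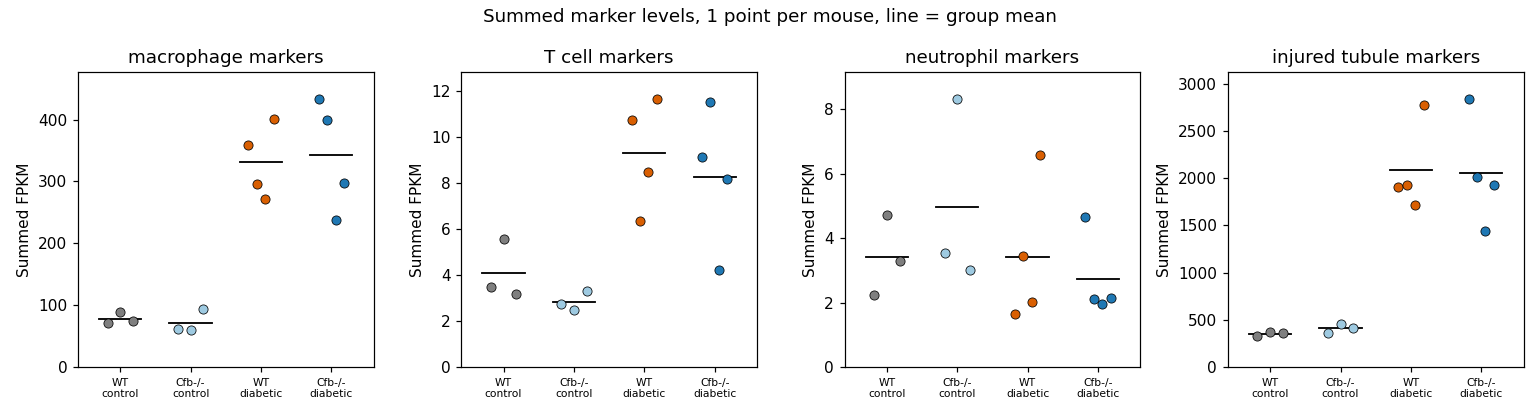
Summed FPKM (vertical axes, from 0) of 10 macrophage, 7 T cell, 9 neutrophil, and 7 injured tubule markers in each mouse of the 4 groups, with a line at the group mean. Macrophage and injured tubule sums of every diabetic mouse lie above those of every control mouse, and neutrophil sums overlap.

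The genes closest to each member within groups are named as a description. Each gene's deviations from its group means were compared over the 14 mice with those of the 12487 genes with a mean of at least 0.5 FPKM, as a description of libraries that share composition. A closest gene is the highest of that many correlations over few mice, so a high r can arise between unrelated genes. Whether any r exceeds that level was not tested. *Nlrp3* was closest to *Arhgap30* (Pearson r 0.936, Spearman rho 0.908) and *Slamf7*, a receptor of leukocytes (r 0.929, rho 0.916). *Gsdmd* was closest to *Rac2*, a GTPase of blood cells (r 0.964, rho 0.895), and *Cxcl9*, a chemokine induced by interferon gamma (r 0.928, rho 0.71). *Pycard* was closest to *Kctd1* (r 0.979, rho 0.947) and *Kdelr3*, a receptor that returns proteins to the endoplasmic reticulum (r 0.968, rho 0.925). *Casp4* was closest to *Fam92a* (r 0.953, rho 0.96) and *Cldn3*, a tight junction protein (r 0.938, rho 0.965), and *Casp1* to *Cpsf4* (r 0.934, rho 0.903). *Il1b* was closest to *Grap* (r 0.946, rho 0.925), *Il18* to *Fam222a* (r 0.921, rho 0.921), and *Gsdme* to *Slc5a11*, a sodium-coupled inositol transporter (r 0.881, rho 0.855).

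The comparison of diabetic mice asks whether the absence of factor B came with other levels of these genes. No member differed between the genotypes beyond the spread between mice by the adjusted test. Between *Cfb*-/- diabetic and WT diabetic mice, limma called 0 of the 10 genes, beside 0.00671% of all tested genes, which was *Cfb* itself, and each adjusted p of a member was 1. At an unadjusted p under 0.05 it was 2 of the 10, *Gsdmc2* and *Gsdmc3*, and 448 of all genes. For the other 8 genes the log2 difference lay between -0.18 for *Il18* and 0.27 for *Casp1*, and their 95% CIs together reached from -0.83 to 0.79. The intervals were narrowest for *Gsdme* (-0.39 to 0.21) and spanned -0.52 to 0.45 for *Gsdmd*, -0.51 to 0.59 for *Nlrp3*, -0.23 to 0.77 for *Casp1*, and -0.63 to 0.4 for *Casp4*. All 10 genes overlapped between the groups, beside 2.75% of all genes that did not. Differences inside these intervals are not excluded by the values of 4 mice in each group.

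In control mice, limma also called 0 of 10 genes between *Cfb*-/- and WT, beside 0.00671% of all genes, and 1 of 10 had an unadjusted p under 0.05, *Gsdmc2*. Of the 14912 tested genes, 2614 had an unadjusted p under 0.05 in this comparison. *Cfb*-/- control mice were all below WT control mice in *Pycard*, *Il18*, and *Gsdme* and all above in *Gsdmc2* and *Gsdmc3*, so that 5 of 10 did not overlap, beside 13.8% of all genes. The separation of *Gsdmc2* and *Gsdmc3* rests on traces under 0.1 FPKM. The lowest *Cfb*-/- control mouse had 0.0121 FPKM of *Gsdmc2* and 0.0116 FPKM of *Gsdmc3*, against 0 in the WT control mice. *Il18* had a log2 difference of -0.71 (95% CI -1.46 to 0.04), with a limma adjusted p of 0.305. *Pycard* had -0.21 (95% CI -0.89 to 0.46) and *Gsdme* -0.2 (95% CI -0.55 to 0.15). With 3 mice against 3, each of these had the smallest possible exact permutation p of 0.1.

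The response to diabetes was compared between genotypes with the interaction term. Limma called 0 of the 10 genes, beside 0% of all tested genes, and 2 of 10 and 861 of all genes had an unadjusted p under 0.05. The interaction, the difference in *Cfb*-/- mice less that in WT mice, was 0.48 (95% CI -0.28 to 1.24) for *Casp1* and -0.33 (95% CI -1.12 to 0.46) for *Casp4*. For *Nlrp3* it was 0.02 (95% CI -0.82 to 0.86) and for *Gsdmd* 0.31 (95% CI -0.43 to 1.06). The 2 genes under the unadjusted threshold were *Gsdmc2* and *Gsdmc3*.

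*Gsdmc2* (chr15:63824328-63845193) and *Gsdmc3* (chr15:63857605-63878579) are paralogs of the gasdermin C cluster, which is known from epithelia. Their coding sequences, of 1440 bases each in GENCODE M21, were 97.1% identical. Their first 150 coding bases are shown to let the reader see how little separates their reads, with capitals at the 1 position that differs (C84A, counted from 1 at the start codon, the base of *Gsdmc2* first).
Gsdmc2: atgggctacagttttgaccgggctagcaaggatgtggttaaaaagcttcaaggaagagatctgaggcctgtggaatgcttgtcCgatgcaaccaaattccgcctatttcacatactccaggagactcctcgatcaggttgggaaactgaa
Gsdmc3: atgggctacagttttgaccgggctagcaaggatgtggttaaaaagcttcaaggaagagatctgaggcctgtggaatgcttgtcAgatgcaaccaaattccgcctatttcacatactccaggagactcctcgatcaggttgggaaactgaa
Of the 1316 windows of 125 bases in the coding sequence of *Gsdmc2*, 18.2% also occurred exactly in *Gsdmc3*, so fragments of one could have been counted for the other and their separate values are uncertain. *Gsdmc4* shared 9.57% of the windows of *Gsdmc2* and 16.6% of those of *Gsdmc3*, but measured at most 0.109 FPKM, and *Gsdmc* was listed at 0 in all 14 mice.

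In the 3 WT control mice *Gsdmc2* was listed at 0. In WT diabetic mice it measured 0, 2.54, 3.94, and 0.906 FPKM, so mouse 1 was like the controls. Controls lacking *Cfb* had 0.967, 0.0121, and 1.31 FPKM, and *Cfb*-/- diabetic mice had 0.0238, 0.0127, 0.0509, and 0.229 FPKM. The high values were thus held by 3 WT diabetic and 2 *Cfb*-/- control mice. *Gsdmc3* was listed at 0 in the 3 WT control mice and in WT diabetic mouse 1, and it measured 2.3, 2.1, and 0.543 FPKM in the other WT diabetic mice. Of *Gsdmc3*, *Cfb*-/- control mice had 0.473, 0.0116, and 0.745 FPKM, and *Cfb*-/- diabetic mice had 0.0113, 0, 0.0241, and 0.0766 FPKM. The same 5 mice were high in both genes, with a ratio of *Gsdmc2* to *Gsdmc3* between 1.11 and 2.05.

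Both were called higher in WT diabetic than WT control mice, with limma adjusted p of 0.0188 for *Gsdmc2* and 0.0161 for *Gsdmc3*, and no fold is given against a group listed at 0. The groups overlapped, and the exact permutation p was 0.229 for both. The call of *Gsdmc2* was lost without WT diabetic mouse 2 (limma adjusted p 0.0513), without WT diabetic mouse 3 (0.0543), or without WT control mouse 2 (0.0576), and that of *Gsdmc3* without WT control mouse 2 (0.0509). In *Cfb*-/- mice the diabetic values were lower than in controls by a log2 difference of -1.77 (SE 1.05) for *Gsdmc2* and -1.6 (SE 0.89) for *Gsdmc3*, with limma adjusted p of 0.213 and 0.186. Between *Cfb*-/- diabetic and WT diabetic mice the log2 difference was -2.65 (95% CI -4.73 to -0.57) for *Gsdmc2* and -2.61 (95% CI -4.38 to -0.84) for *Gsdmc3*. At an unadjusted p under 0.05 with a fold under 0.5, both were lower, as were 0.402% of all tested genes, while the limma adjusted p was 1 and the exact permutation p 0.143 for both.

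Markers of the urothelium, the lining of the renal pelvis and lower tract, moved with *Gsdmc2* and *Gsdmc3* from mouse to mouse. Of 10 such markers, 10 were called higher in WT diabetic than WT control mice and 0 were called in *Cfb*-/- mice. Of all tested genes, 36.2% were called and higher in WT mice and 33.8% were called in *Cfb*-/- mice. These markers were high in the same mice and are not separate pieces of evidence. Their sum was 0.388 to 1.12 FPKM in WT control, 1.11 to 55.4 FPKM in WT diabetic, 0.827 to 12.4 FPKM in *Cfb*-/- control, and 1.73 to 4.54 FPKM in *Cfb*-/- diabetic mice. WT diabetic mouse 1, in which both gasdermins were listed at 0, had the sum of 1.11 FPKM, and the other WT diabetic mice had 44.9, 55.4, and 19.4 FPKM. *Cfb*-/- control mouse 2, low in both gasdermins, had the sum of 0.827 FPKM, and the other *Cfb*-/- control mice had 11.4 and 12.4 FPKM. Between diabetic groups 8 of the 10 markers had an unadjusted p under 0.05, and 10 of 10 did in the interaction. Of the 14912 tested genes, 448 and 861 did. Of 6 tested adipocyte markers, 6 were called higher in WT diabetic and 1 in *Cfb*-/- diabetic mice, beside 36.2% and 27.4% of all tested genes. The list summed to 18.3 to 33 FPKM in WT control, 55.3 to 97.5 FPKM in WT diabetic, 16.1 to 39.4 FPKM in *Cfb*-/- control, and 32.3 to 44 FPKM in *Cfb*-/- diabetic mice. Of these markers *Cfd*, *Plin1*, *Lep*, and *Retn* were at 0 in every *Cfb*-/- diabetic mouse. The genes closest to *Gsdmc2* within groups were the uroplakins *Upk1a* (r 0.978, rho 0.912), *Upk1b* (r 0.975, rho 0.898), and *Upk2* (r 0.973, rho 0.899), which form the plaques of the urothelial surface. Those closest to *Gsdmc3* were *Upk1a* (r 0.987, rho 0.943), *Gsdmc2* (r 0.985, rho 0.978), and *Sptssb*, a subunit of serine palmitoyltransferase (r 0.981, rho 0.966). The part of urothelial or adipocyte RNA in the differences of *Gsdmc2* and *Gsdmc3* between groups was not tested.

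**Figure D4:**
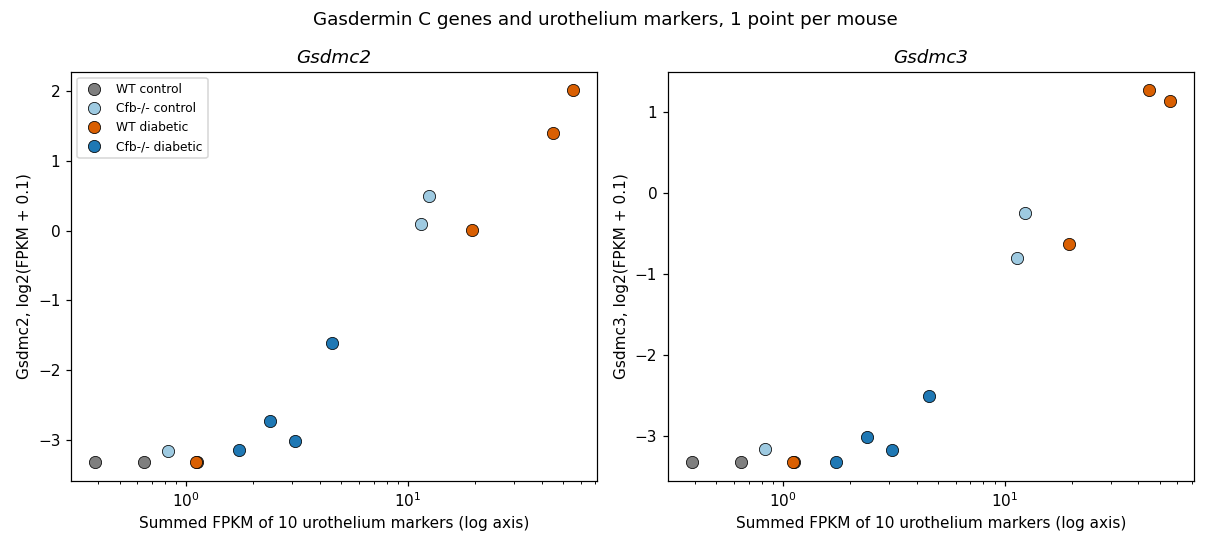
Level of *Gsdmc2* (left) and *Gsdmc3* (right) as log2(FPKM + 0.1) (vertical axes) against the summed FPKM of 10 urothelium markers (horizontal axes, log scale), 1 point per mouse of the 4 groups. The 5 mice with sums from 11.4 to 55.4 FPKM are the 5 mice with the highest gasdermin values, and the point of 1 WT control mouse lies behind that of WT diabetic mouse 1.

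The wider pathway was read from a list of 55 further genes, all found in the tables, of which 45 passed the filter on low values. In WT mice 26 were called higher, 4 lower, and 15 were not called, with a median log2 difference of 0.72. In *Cfb*-/- mice 29 were called higher, 2 lower, and 14 were not called, with a median of 0.76. The medians over all tested genes were 0.29 and 0.22, as given above. Of all tested genes, 46.1% were called in WT mice, with 36.2% called and higher. In *Cfb*-/- mice the shares were 33.8% and 27.4%. The same shares stand beside the counts for the parts of the list given below. The list was chosen with earlier results of these data known, so the counts do not test it against all genes. Some of its genes, among them *Aim2*, *Naip1*, *Naip6*, and *Il1rn*, reached 0.1 FPKM only in diabetic mice. These genes passed the filter through the group in which they were high, so their calls are no separate support. Between *Cfb*-/- diabetic and WT diabetic mice, limma called 0 of the 45, and 1, the sensor gene *Mefv*, had an unadjusted p under 0.05. It also called 0 of the 45 between control groups, with 7 at an unadjusted p under 0.05, and 0 in the interaction, with 2, *Mefv* and *Il18r1*. Of the 14912 tested genes, 448 had an unadjusted p under 0.05 between diabetic groups, 2614 between control groups, and 861 in the interaction.

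Among other sensors, 5 of 10 tested genes were called higher in WT and 7 of 10 in *Cfb*-/- mice. *Aim2*, a sensor of cytosolic DNA, measured 0.0437 to 0.098 FPKM in WT control and 0.168 to 0.37 FPKM in WT diabetic mice, a log2 difference of 1.11 in WT and 1.17 in *Cfb*-/- mice. *Naip5*, which binds bacterial flagellin, had log2 differences of 1.52 and 1.18. *Naip1* had 1.19 and 1.42 and *Naip6* 1.13 and 1.19, and because the *Naip* genes are close paralogs their separate values are uncertain. *Nlrp6*, a sensor of epithelia, was the most abundant of these at 23 to 29.6 FPKM in WT control mice and was called lower in WT diabetic mice by a log2 difference of -0.54, with a limma adjusted p of 0.0228. *Nlrc4*, the partner of the *Naip* proteins, was called lower in *Cfb*-/- diabetic mice by -0.86, with a limma adjusted p of 0.0223. *Nlrp6* and *Nlrc4* were singled out after their values were seen.

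Among activators and regulators, 8 of 12 were called higher in WT and 8 of 12 in *Cfb*-/- mice, though not all were the same genes. *P2rx7*, the ATP-gated channel that triggers NLRP3, measured 0.211 to 0.472 FPKM in WT control and 0.935 to 1.78 FPKM in WT diabetic mice, a log2 difference of 1.62 in WT and 1.42 in *Cfb*-/- mice. *Panx1*, a channel that releases ATP, had log2 differences of 1.75 and 1.87. The 3 listed genes of guanylate-binding proteins, which open pathogen vacuoles and help to activate caspase-4, were called higher in both genotypes. *Gbp3* had the largest log2 differences, of 2.06 in WT and 2.22 in *Cfb*-/- mice, and measured 1.88 to 2.25 FPKM in WT control and 8.2 to 9.9 FPKM in WT diabetic mice. The log2 differences of *Gbp2* were 1.35 and 1.65, and those of *Gbp5* were 1.42 and 1.19. *Serpinb1a*, an inhibitor of inflammatory proteases, had 0.65 in WT and 1.07 in *Cfb*-/- mice. In WT mice the regulator *Nlrx1*, an NLR protein of mitochondria, was called lower by -0.73, with a limma adjusted p of 0.00495, and was singled out after its values were seen.

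Among other caspases of cell death, 3 of 5 were called higher in both genotypes. *Casp12*, which lies in the family of inflammatory caspases, measured 0.452 to 0.704 FPKM in WT control and 2.48 to 3.36 FPKM in WT diabetic mice, with log2 differences of 2.2 in WT and 2.1 in *Cfb*-/- mice. Of 7 other genes for gasdermins and membrane rupture only *Ninj1* passed the filter, the gene of ninjurin-1, which breaks the membrane of dying cells. It was called lower in both genotypes, by log2 differences of -0.62 and -0.38, with limma adjusted p of 0.00138 and 0.0295. *Ninj1* was singled out after its values were seen.

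The largest differences were in other cytokines of the interleukin 1 family, of which 3 of 5 tested were called higher in both genotypes. *Il1rn*, the antagonist of the IL-1 receptor, measured 0.0157 to 0.0593 FPKM in WT control, 0.801 to 1.37 FPKM in WT diabetic, 0.0173 to 0.0499 FPKM in *Cfb*-/- control, and 0.808 to 1.63 FPKM in *Cfb*-/- diabetic mice. Its log2 difference was 2.99 in WT and 3.24 in *Cfb*-/- mice. *Il36a*, an epithelial agonist of the IL-36 receptor, measured 0 to 0.107 FPKM in WT control and 1.06 to 2.13 FPKM in WT diabetic mice, with log2 differences of 3.43 and 4.02. *Il33*, an alarmin stored in nuclei, measured 1.16 to 2.66 FPKM in WT control and 5.21 to 6.5 FPKM in WT diabetic mice, with log2 differences of 1.54 and 1.58. The antagonist *Il1rn* thus rose in mice in which *Il1b* itself, described above, did not pass the test, and *Il1a* did not exceed 0.0438 FPKM in any mouse.

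Among receptors and binding proteins, 7 of 12 tested were called higher in WT and 8 of 12 in *Cfb*-/- mice. *Il18bp*, the soluble protein that neutralizes IL-18, measured 0.909 to 1.71 FPKM in WT control and 3.27 to 4.03 FPKM in WT diabetic mice, with log2 differences of 1.45 in WT and 1.24 in *Cfb*-/- mice. *Il18r1*, the binding chain of the IL-18 receptor, had 2.35 and 1.25, and the interaction of -1.10 had an unadjusted p of 0.0203 and a limma adjusted p of 0.779. *Il18rap*, its accessory chain, had 0.9 and 1.05. *Il1r1*, the signalling receptor of IL-1, had 1.06 and 1.25, and *Irak3*, an inhibitor of that signalling, had 1.46 and 1.35. *Sigirr*, another inhibitor of IL-1 family receptors, was called lower in WT mice by -0.61, with a limma adjusted p of 0.00152, and was singled out after its values were seen.

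**Figure D5:**
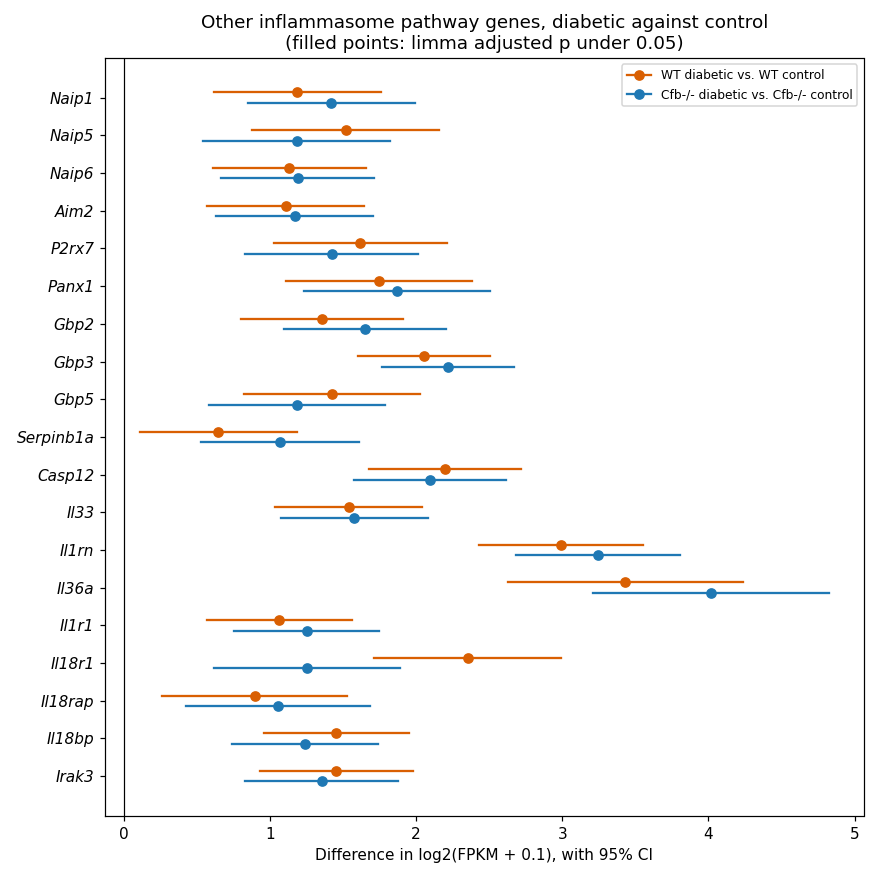
Difference in log2(FPKM + 0.1) between diabetic and control mice with its 95% CI (horizontal axis) for the 19 further pathway genes that were called with a difference over 1 (vertical axis), in WT and *Cfb*-/- mice. All points are filled because each gene passed a limma adjusted p under 0.05 in both genotypes, and *Il36a* and *Il1rn* lie farthest to the right.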

How the data were processed

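The authors deposited 1 table per mouse with FPKM values for 21878 genes, which are not counts, so the count test of the study's methods could not be used. The submitters' processing notes name Trimmomatic, HISAT2, Cufflinks, HTSeq, and DESeq, without versions or roles, and the build GRCm38.p6. Libraries were stranded, made from mRNA, and read from both ends, and the depth per mouse is not known, which leaves the precision of low values unknown.

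The test was limma (version 3.58.1, R version 4.3.3) on log2(FPKM + 0.1) of the values as deposited, with its trend option, for the 14912 genes that reached 0.1 FPKM in 3 or more mice. All 14 mice entered 1 fit with a mean for each group. Exact two-sided permutation tests over mice and tables were made in Python 3.11.15 with scipy 1.17.1, pandas 2.3.3, numpy 2.4.6, and matplotlib 3.10.9. The study describes WT mice as littermates of the *Cfb*-/- mice, but the litter and preparation of each mouse are not given in the sources used here, so p-values measure the spread between these mice. The members, the pathway list, and the marker lists were chosen with earlier results of these data known. All 10 members are named, as are further pathway genes called in at least 1 of 4 group comparisons with an absolute log2 difference over 1, and the 3 genes most like each member or the closest of them. Symbols and positions came from RefSeq and 6 listed genes were matched under an older symbol. The B cell marker *Ighm* and the T cell marker *Trac* were not found and were not analysed here, and the values of a listed pathway gene are not reported here. Alternatives were other pseudocounts, filters, and scalings, the compared groups alone, the replicate block, the study's criterion of an unadjusted p under 0.05 with a fold over 2 or under 0.5, and each mouse left out in turn.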

Additional observations from a re-analysis of the deposited data

How the results depend on the processing

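The members called numbered 6 in WT and 5 in *Cfb*-/- mice for diabetic against control mice and stayed within 1.5 times of that under every setting, at 4 to 7 in WT mice and 5 in *Cfb*-/- mice with single mice left out. The 4 in WT mice arose without WT control mouse 2, and counts of 7 arose when *Pycard* or *Gsdme* joined. A like count did not always hold the same genes or direction. Under quantile normalization in WT mice *Nlrp3* and *Gsdmd* dropped out. *Il18* (-1.03, limma adjusted p 0.0159) and *Gsdme* (-0.90, limma adjusted p 0.00315) were called lower there. In *Cfb*-/- mice this setting also called *Gsdme* lower (-0.765, limma adjusted p 0.00982). *Casp1* and *Casp4* were called in both genotypes under every setting run. With the replicate block the counts were again 6 and 5 for members and 27 and 27 for other pathway genes. Same-numbered mice of both genotypes did not deviate together (r from -0.388 to 0.13, and 1 of 7 mice was closest to its own number), so the numbers do not pair them. Other pathway genes called in WT mice numbered 30, and 17 by the study's criterion of an unadjusted p under 0.05 with a fold over 2 or under 0.5. In *Cfb*-/- mice they numbered 31, 19 by that criterion, and 19 with a filter at 1 FPKM, under which fewer genes were tested. By that criterion 2 members passed instead of 0 between diabetic groups, 1 instead of 0 between control groups, and 2 instead of 0 in the interaction, where 1 other pathway gene passed instead of 0. Between control groups 0 to 3 other pathway genes were called with single mice left out, with 3 without WT control mouse 1. The 38 changes of sign were all of differences that were not called, and their cause was not tested. For WT diabetic against WT control mice, *Il1b* turned to -0.11 under median-ratio scaling and -0.66 under quantile normalization, and ranged from -0.15 to 0.29 with single mice left out. For *Cfb*-/- diabetic against *Cfb*-/- control mice, *Il1b* turned to -0.40 and *Il18* to -0.45 under quantile normalization, *Il18* fell to 0 under median-ratio scaling, and *Il18* ranged from -0.086 to 0.47 with single mice left out. For *Cfb*-/- diabetic against WT diabetic mice, *Nlrp3* turned to -0.004 under median-ratio scaling, and the ranges with single mice left out were -0.19 to 0.19 for *Nlrp3*, -0.053 to 0.36 for *Pycard*, -0.27 to 0.034 for *Casp4*, -0.067 to 0.38 for *Il1b*, -0.41 to 0.082 for *Il18*, -0.21 to 0.15 for *Gsdmd*, and -0.17 to 0.006 for *Gsdme*. For *Cfb*-/- control against WT control mice, *Nlrp3* turned to -0.022 under median-ratio scaling and -0.11 under quantile normalization, and the ranges were -0.10 to 0.15 for *Nlrp3*, -0.36 to 0.078 for *Casp1*, -0.050 to 0.40 for *Casp4*, and -0.31 to 0.19 for *Il1b*. In the interaction the ranges were -0.21 to 0.17 for *Nlrp3* and -0.053 to 0.44 for *Il1b*. Levels under 0.1 FPKM, such as *Nlrp3* in control mice and *Gsdmc2* and *Gsdmc3* in *Cfb*-/- diabetic mice, are limited by an unknown depth. Tests that need read counts were not run.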
